A study of Mus musculus with 2 samples.

Results

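The circadian clock genes described here are the 10 genes Arntl, Clock, Npas2, Per1, Per2, Per3, Cry1, Cry2, Nr1d1 and Dbp, out of 21938 protein-coding genes in the GENCODE M21 annotation. They are a list of gene names, with no threshold on their values. For each gene, the deposited peaks at its promoter, in its gene body and at distal sites within 100 kb were collected, together with the deposited footprints. DNase-seq, which finds accessible chromatin from where DNase I cuts it, was run on the right cerebral cortex of adult female mice of the hybrid strain B6CASTF1/J, aged 18 to 20 months. There are 2 biological replicates of 1 group, untreated as far as the labels say, and no other condition to set them against. Both carry the same donor identifier, and nothing says that they came from separate animals. The spread between them may therefore be technical. None of the sources used here gives the hour at which the tissue was taken.

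The clock is a transcriptional loop with a period of about a day. BMAL1, encoded by Arntl, pairs with CLOCK or with its relative NPAS2 and binds E-boxes, short DNA elements with the letters CACGTG or a close variant. Among the genes this pair switches on are the Per and Cry genes, whose proteins return to the nucleus and repress it, and Nr1d1, which encodes the nuclear receptor REV-ERBα. REV-ERBα represses Arntl through ROR elements (RORE), where the ROR receptors activate. Dbp encodes a bZIP factor that the same pair drives and that binds D-boxes, which passes the rhythm on to other genes. In cortex, neurons and glia both run this loop.

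Sequence shows best where the clock's own elements lie in these genes. The 6 regions below are the promoter and gene-body regions in which an E-box, a D-box or a RORE core lay wholly inside a footprint in both replicates. A footprint is a short stretch inside an open region that is cut less than its surroundings. Letters run 5′ to 3′ on the gene's strand, from RefSeq's GRCm38.p6, the assembly that mm10 names. They are those of the reference, and alleles of this hybrid strain that differ from it were not examined. Capitals mark the elements inside a footprint of both replicates, and further copies that did not meet this are left in lower case. The Per1 promoter region is chr11:69094741-69095020 on the plus strand, with 1 E-box. The Per3 stretch is chr4:151044670-151044969 on the minus strand, with 1 D-box. The Cry1 promoter region is chr10:85185021-85185200 on the minus strand, with 1 E-box. The Dbp region is chr7:45707624-45707859 on the plus strand, with 1 E-box, and lies inside the gene at an alternative start site. The Nr1d1 intronic stretch is chr11:98773867-98774166 on the minus strand, with 2 E-boxes flanking a D-box. The Cry2 intronic region is chr2:92423784-92424015 on the minus strand, with 1 E-box.
Per1 promoter: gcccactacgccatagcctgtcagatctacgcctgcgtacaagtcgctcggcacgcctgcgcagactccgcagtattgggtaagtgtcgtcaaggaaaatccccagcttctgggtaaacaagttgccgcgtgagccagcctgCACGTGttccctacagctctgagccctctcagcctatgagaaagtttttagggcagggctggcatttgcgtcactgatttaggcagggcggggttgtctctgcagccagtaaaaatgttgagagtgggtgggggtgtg
Per3 promoter: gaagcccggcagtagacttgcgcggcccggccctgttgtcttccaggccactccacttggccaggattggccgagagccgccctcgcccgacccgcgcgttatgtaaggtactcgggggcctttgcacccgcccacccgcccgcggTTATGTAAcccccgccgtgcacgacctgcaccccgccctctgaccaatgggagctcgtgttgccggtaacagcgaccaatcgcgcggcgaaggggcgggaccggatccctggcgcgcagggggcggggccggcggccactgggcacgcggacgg
Cry1 promoter: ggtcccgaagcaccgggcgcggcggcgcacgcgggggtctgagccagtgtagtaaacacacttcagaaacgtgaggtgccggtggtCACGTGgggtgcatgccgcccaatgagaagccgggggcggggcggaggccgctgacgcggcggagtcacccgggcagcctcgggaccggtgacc
Dbp promoter: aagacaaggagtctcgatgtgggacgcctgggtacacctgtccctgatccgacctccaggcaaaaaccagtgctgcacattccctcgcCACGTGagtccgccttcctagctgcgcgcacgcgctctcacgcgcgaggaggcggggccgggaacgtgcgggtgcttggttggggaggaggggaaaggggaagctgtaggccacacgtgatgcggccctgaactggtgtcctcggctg
Nr1d1 intron: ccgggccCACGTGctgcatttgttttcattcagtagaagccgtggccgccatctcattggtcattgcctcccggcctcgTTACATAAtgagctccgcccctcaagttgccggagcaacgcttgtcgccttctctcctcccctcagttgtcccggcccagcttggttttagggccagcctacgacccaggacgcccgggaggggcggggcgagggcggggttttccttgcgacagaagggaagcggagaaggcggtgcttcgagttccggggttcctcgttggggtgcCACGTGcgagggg
Cry2 intron: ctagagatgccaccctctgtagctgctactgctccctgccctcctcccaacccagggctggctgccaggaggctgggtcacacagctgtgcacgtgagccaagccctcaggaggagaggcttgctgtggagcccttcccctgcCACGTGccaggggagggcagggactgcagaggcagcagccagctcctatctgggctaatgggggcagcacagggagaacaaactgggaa

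A further 4 regions, chosen after their values were seen, show elements outside that set. The Per1 intronic region chr11:69097021-69097300, plus strand, holds a cAMP response element (CRE) and a match to the glucocorticoid element, both in capitals. This region lies 1787 bp upstream of the principal Per1 start site, in an intron of a transcript that starts further upstream. The CRE lay inside a footprint of both replicates, whereas the glucocorticoid element only touched one in each. The Per2 promoter stretch chr1:91459301-91459600, minus strand, has a D-box and an E-prime box (CACGTT) in capitals. Neither of these Per2 elements was inside a footprint of both replicates, but both touched one in each. Both lie in the strongest Per2 promoter peak of replicate 1, but outside that of replicate 2, chr1:91459461-91459640. The distal Nr1d1 region chr11:98783381-98783640, minus strand, has an E-box in capitals. The distal Arntl region chr7:113143601-113143800, plus strand, has in capitals a RORE core, which reads TAGGTCA on the other strand.
Per1 intron: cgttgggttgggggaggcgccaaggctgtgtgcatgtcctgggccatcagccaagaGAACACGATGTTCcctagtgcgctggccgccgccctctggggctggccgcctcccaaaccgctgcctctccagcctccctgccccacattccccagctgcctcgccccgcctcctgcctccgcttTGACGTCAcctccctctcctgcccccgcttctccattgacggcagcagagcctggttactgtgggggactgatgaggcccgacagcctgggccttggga
Per2 promoter: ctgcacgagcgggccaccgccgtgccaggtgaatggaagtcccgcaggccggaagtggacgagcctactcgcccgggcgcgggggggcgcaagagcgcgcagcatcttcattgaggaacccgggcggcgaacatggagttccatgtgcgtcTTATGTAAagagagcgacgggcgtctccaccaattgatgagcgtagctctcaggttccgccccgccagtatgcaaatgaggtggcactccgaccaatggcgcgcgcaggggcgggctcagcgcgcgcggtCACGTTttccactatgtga
Nr1d1 distal: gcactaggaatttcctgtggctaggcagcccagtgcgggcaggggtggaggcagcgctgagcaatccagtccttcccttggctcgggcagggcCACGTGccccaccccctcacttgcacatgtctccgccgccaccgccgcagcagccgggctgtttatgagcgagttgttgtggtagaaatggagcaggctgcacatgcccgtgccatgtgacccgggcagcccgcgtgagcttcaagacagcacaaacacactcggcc
Arntl distal: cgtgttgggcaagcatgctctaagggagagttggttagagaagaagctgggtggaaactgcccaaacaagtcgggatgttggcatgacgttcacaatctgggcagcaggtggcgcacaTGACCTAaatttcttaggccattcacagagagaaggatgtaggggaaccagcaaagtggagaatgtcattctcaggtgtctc

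The depth and the tissue set the frame for these values. Each library has a shorter and a longer deposited peak list, and the shorter was used, with 86601 peaks in replicate 1 and 88482 in replicate 2. Coordinates are mm10. A peak's value is the authors' deposited signal, in units they do not name. All values were whole multiples of a step of 0.00497 in replicate 1 and 0.00892 in replicate 2, within 0.05 steps. If 1 step stands for 1 read, replicate 1 was the deeper library by 1.79 times. Promoter values were higher in replicate 2 for 93.5% of the genes open in both. Of the markers checked by promoter peaks in both replicates, neurons had 6 of 6, excitatory neurons 3 of 5, inhibitory neurons 1 of 6, astrocytes 3 of 6 and oligodendrocytes 2 of 6. Microglia, endothelial cells, liver and muscle had 0 of 5 each. In whole tissue, fewer cells with an open site and less opening per cell cannot be told apart.

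Nearly all of the clock genes were open at their promoters. A promoter peak, within 500 bp of an annotated start site, was present in both replicates at 9 of 10 clock genes, against 57.9% of all protein-coding genes (12692 of 21938). The exception was Npas2. Over the 9 open clock genes the mean promoter value, taken from the strongest peak and averaged over the replicates, had a median of 6.02, against 2.71 over all genes open in both. It was lowest at Clock, with 3.18, and highest at Nr1d1, with 8.87. The median percentile of the clock genes among the open genes was 94.3, with 5 of them above the 90th percentile and 4 above the 95th.

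**Figure D1:**
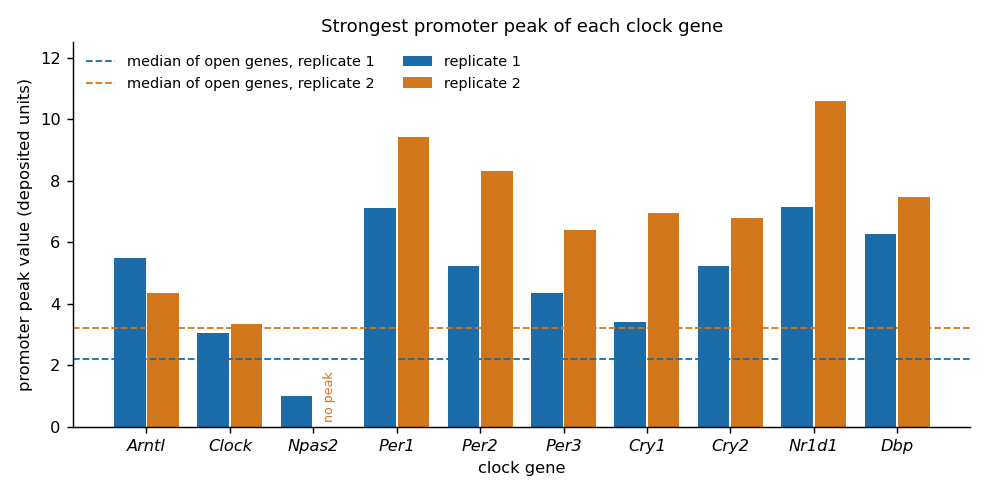
Strongest promoter peak value (y axis, deposited units, linear from 0) of each clock gene (x axis), with 1 bar per replicate and dashed lines at the median of all genes open in both, 2.19 in replicate 1 and 3.20 in replicate 2. Per1, Nr1d1 and Dbp stand well above the dashed lines in both replicates, Clock lies near them, and Npas2 has a low bar in replicate 1 and no listed peak in replicate 2.

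Among the activators, Arntl had promoter values of 5.49 in replicate 1 and 4.35 in replicate 2. Clock, which encodes the partner of BMAL1 with histone acetyltransferase activity, had 3.03 and 3.33. The Arntl values did not overlap the Clock values, and both genes were above the median of open genes in each replicate, with percentiles of 86.3 for Arntl and 60.9 for Clock. Arntl starts at chr7:113207465 on the plus strand, and its peak was centred 154 bp upstream in both replicates. The main Clock region, chr5:76304681-76304960, spanned its start site on the minus strand and shared it with the promoter of the predicted gene Gm7467, so its value cannot be assigned to one of them.

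Npas2, which encodes the CLOCK paralogue best known from forebrain, had a promoter value of 0.984 in replicate 1 and no peak of the shorter list in replicate 2. The shorter and the longer list differ here. The longer list of replicate 2 holds a peak at the Npas2 promoter, chr1:39193965-39194266, with a value of 0.918. The replicate 1 value rested on 198 steps, and its exact 95% Poisson interval for counting error alone, 0.852 to 1.13, includes 0.918. That interval takes no account of the offset between the libraries, a median log2 of -0.50 for replicate 1 over replicate 2. Of all genes open in both, 93.5% were higher in replicate 2, whereas Npas2 was not. In the authors' interval lists the lowest false discovery rate (FDR) in the Npas2 promoter was 1.00e-07 in replicate 1 and 5.27e-04 in replicate 2, with 243 and 28 bp at 0.001 or lower. At the 9 other clock genes the lowest FDR lay between 2.90e-151 and 3.73e-22. With the longer list all 10 clock genes were open in both replicates, as were 62.4% of all genes, and Npas2 stood at percentile 16.4. On the longer list it had the lowest promoter value of the clock genes in both replicates.

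The Per genes encode the repressors that carry the Cry proteins into the nucleus, and Per1 had the highest promoter peak among them. Per1 had promoter values of 7.10 in replicate 1 and 9.42 in replicate 2, at percentile 99.6 of open genes. Per2, whose region was chr1:91459301-91459640, had 5.22 and 8.30, at percentile 97.1. Per3, at chr4:151044621-151045000, had 4.35 and 6.38, at percentile 89.9. In each replicate the order was Per1, Per2, Per3 when the strongest start site of each gene was taken, although the ranges over the replicates overlap between Per1 and Per2 and between Per2 and Per3. With principal start sites only, the mean value of Per1 was 4.65, below Per2 with 6.76 and Per3 with 5.36. The Per3 promoter lies within the annotated span of the neighbouring gene Camta1.

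The Per1 value came from an upstream start. Its strongest peak, chr11:69094741-69095020, was 4067 bp upstream of the principal start site and just upstream of an alternative one. The region at the principal start, chr11:69098761-69099000, had 3.79 in replicate 1 and 5.51 in replicate 2, lower than the upstream region, and than the Per3 promoter, in both. A further promoter region 1113 bp downstream of the principal start had 2.98 and 3.41. The last, chr11:69099261-69099520, was weak, with 0.661 and 1.28, and held no footprint in either replicate. Per1 therefore had 4 shared promoter regions, more than any of the other clock genes.

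The Cry genes encode the flavoproteins that repress the CLOCK and BMAL1 pair directly. Cry2, with its region at chr2:92434041-92434340, had promoter values of 5.24 in replicate 1 and 6.79 in replicate 2, at percentile 94.3. Cry1 had 3.41 and 6.94, at percentile 86.1. Cry1 was below Cry2 in replicate 1 and marginally above it in replicate 2, so their order is not settled by these libraries. Cry1 had a second strong promoter region, chr10:85185261-85185520, with 2.97 and 5.55.

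The highest value belonged to Nr1d1, at chr11:98775241-98775520, with 7.15 in replicate 1 and 10.6 in replicate 2, at percentile 99.8 of open genes. Dbp, the output factor, had 6.28 and 7.48, at percentile 97.8. Nr1d1 ranked ahead of Per1 in both replicates, by little in replicate 1. From the top, the order of mean values was Nr1d1, Per1, Dbp, Per2, Cry2, Per3, Cry1, Arntl, Clock. With principal start sites only, Per1 came below Arntl and above Clock. Neighbours in the order first given overlapped over the replicates, except that Arntl and Clock did not. The mean was 8.87 ± 2.44 for Nr1d1 and 6.88 ± 0.851 for Dbp (SD, n = 2 each).

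**Figure D2:**
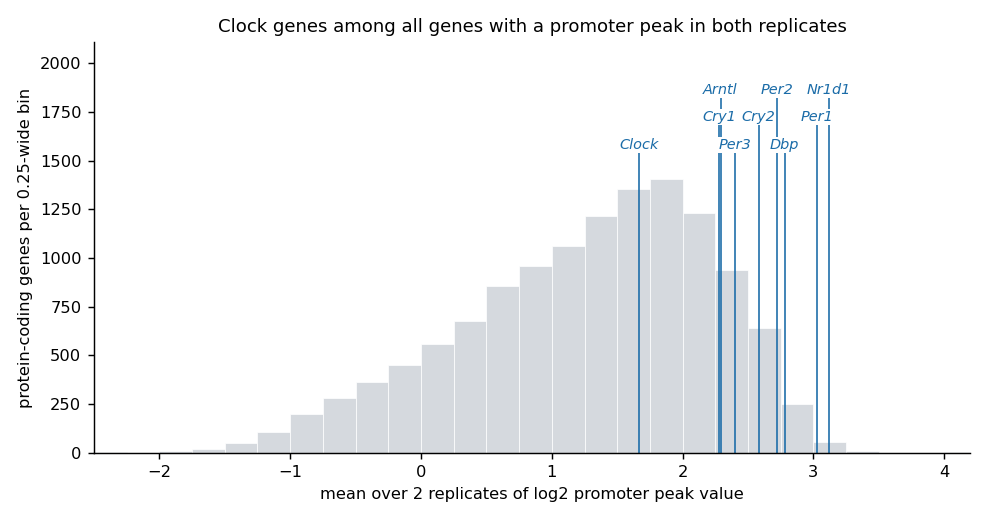
Histogram of all 12692 protein-coding genes with a promoter peak in both replicates (y axis, genes per bin) by the mean log2 promoter value (x axis), with blue lines at the 9 open clock genes. Clock lies near the peak of the histogram, while Per1 and Nr1d1 lie in its upper tail at percentiles 99.6 and 99.8.

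Beyond promoters, the clock genes held 65 regions found in both replicates, of 65097 shared regions in all. Of these, 18 were promoter regions, 28 were in gene bodies, all of them in introns, and 19 were distal. At least 1 gene-body region was found at 9 of 10 clock genes, all but Dbp, against 34.8% of all genes. At least 1 distal region was assigned to 6 of 10, against 37.5%. The median over clock genes was 4.50 regions in all, against 2.00 over all protein-coding genes.

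**Figure D3:**
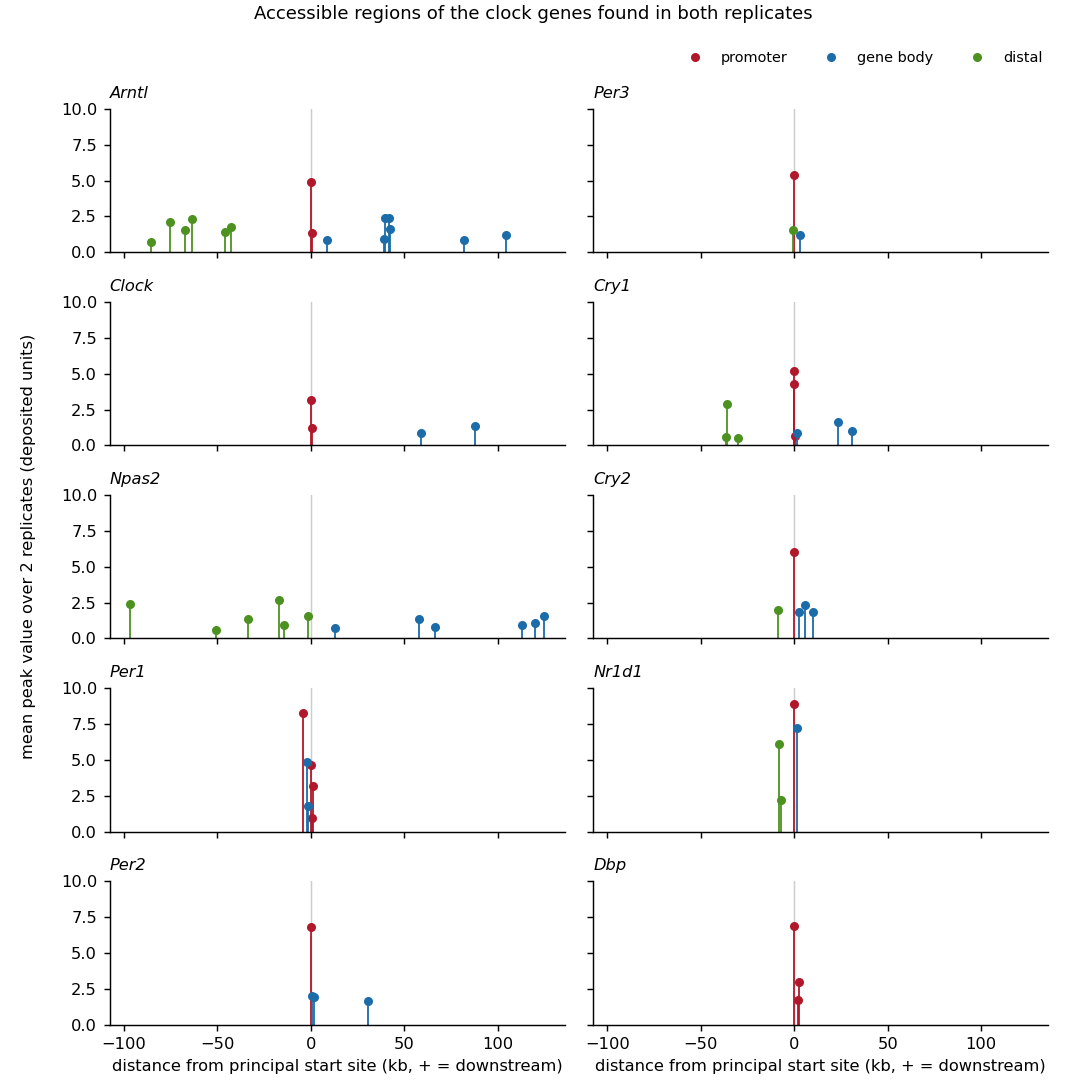
Each panel is 1 clock gene, with shared regions placed by distance from the principal start site (x axis, kb, positive downstream) and by mean peak value over the replicates (y axis, deposited units). Arntl and Npas2 show many low regions spread over more than 100 kb, whereas Nr1d1, Per1 and Dbp hold their regions close to the start, several of them high.

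Arntl and Npas2 had the most regions, 15 and 12. Arntl had 7 gene-body and 6 distal regions, and none of these had a mean value above 2.41. Around the Npas2 start, by contrast, several distal regions exceeded the promoter itself. The region chr1:39192661-39192920, 940 bp upstream of the nearest Npas2 start site, had 1.28 in replicate 1 and 1.87 in replicate 2. The region 16330 bp upstream had 2.61 and 2.69, the highest mean of the 12, although chr1:39097481-39097900 was higher in replicate 2, with 2.92. Npas2 was the one clock gene whose strongest shared region was not at its promoter. This follows from the missing replicate 2 peak, which left it without a shared promoter region.

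Nr1d1 and Per1 had non-promoter regions near the top of their class. The intronic Nr1d1 region chr11:98773841-98774200, 1312 bp downstream of the start, had 6.37 in replicate 1 and 7.99 in replicate 2, at percentile 99.9 of all shared gene-body regions. The distal Nr1d1 region chr11:98783381-98783640, 8178 bp upstream, had 4.54 and 7.69, at percentile 99.9 of distal regions. The Per1 intronic region chr11:69097021-69097300, 1787 bp upstream of the principal start site, had 5.04 and 4.64, at percentile 99.8 of gene-body regions. All of these exceeded the promoter values of Clock in both replicates. Of the members' other gene-body and distal regions, the highest mean was 2.87, at a Cry1 site 36057 bp upstream. In all, 6 of 28 gene-body and 8 of 19 distal regions were above the 90th percentile of their class.

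Dbp was compact. Its main region, chr7:45704761-45705140, held the promoter value given above. A second region 1920 bp downstream had 1.60 in replicate 1 and 1.84 in replicate 2. Another, chr7:45707624-45707859, 2654 bp downstream, had 2.43 and 3.44. Both internal regions counted as promoter because annotated transcripts of Dbp start there. Cry2 had 3 intronic regions, of 1.54, 1.67 and 1.73 in replicate 1 and 2.10, 3.03 and 1.90 in replicate 2, each of which also lies in the span of D930015M05Rik.

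The gap between the replicates varied from gene to gene. Over all genes open in both, the log2 promoter value of replicate 1 over replicate 2 had a median of -0.50, and after centring on it an SD of 0.35. The centred difference had a median of 0.09 over the 9 clock genes, and 8 of the 9 had the higher uncentred value in replicate 2. Arntl was the exception, with a centred difference of 0.83, at percentile 99.4 of all open genes. Clock had 0.36, at percentile 86.1. At the other end, Cry1 had -0.53, at percentile 6.63. The 6 remaining genes lay between -0.17 and 0.24, about the quartiles of all genes (-0.23 and 0.23). With 1 library on each side there is no test of these differences.

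Regions of the same gene did not always move alike. The Arntl promoter value in replicate 2 was 0.792 times that in replicate 1. The distal Arntl region chr7:113143601-113143800, with the RORE core shown above, had 0.939 in replicate 1 and 3.75 in replicate 2, about 4 times the replicate 1 value. The distal Arntl region chr7:113132261-113132460 had 0.929 and 3.29. These were the largest folds of the 19 distal regions, against a median of 1.33 over all distal regions. In the gene bodies the largest was a Per2 intronic region, chr1:91428721-91428920, with 0.731 and 2.61. The Nr1d1 intronic region differed by 1.25-fold.

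**Figure D4:**
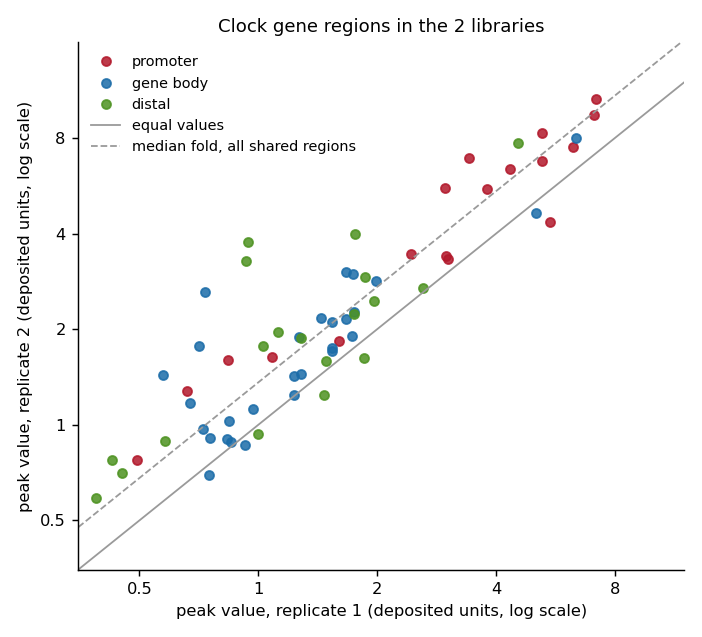
Peak values of the 65 shared clock gene regions in replicate 1 (x axis) and replicate 2 (y axis), both in deposited units on log scales, coloured by class, with a solid line at equal values and a dashed line at the median fold of all shared regions, 1.36. Most points lie between or above the lines, and 2 distal Arntl points and 1 Per2 gene-body point stand furthest above them.

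Footprints were dense in the clock gene promoters. The 18 promoter regions held 86 footprints in replicate 1 and 94 in replicate 2, and 64 were found in both. That is 1.16 per 100 bp, against 0.713 over all shared promoter regions. Gene-body regions had 0.599 per 100 bp, against 0.493, and distal regions 0.505, against 0.493. The clock gene promoter regions were also stronger, with a median mean value of 4.46 against 1.80, and the part of strength in their footprint count was not tested. At least 1 footprint in both replicates lay in 83.3% of the clock gene promoter regions, against 81.1% of all.

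E-boxes were the clock element most often inside a footprint. The 65 regions held 13 copies of CACGTG in 5 genes, and 7 lay wholly inside a footprint of both replicates, against 652 of 4380 copies, or 14.9%, over all shared regions. Over the strongest 25% of all shared regions in each class the share was 25.6%. Some of the 7 lay in regions well above that cut, such as the Nr1d1 intron at percentile 99.9 of its class. The part of strength in the E-box share was not tested. The 13 E-boxes were in Per1, Cry1, Cry2, Dbp and Nr1d1, with 8 inside a footprint in replicate 1 and 10 in replicate 2. The Cry1 E-box lay 48 bp upstream of the start site, inside a footprint of 17 bp in replicate 1 and 18 bp in replicate 2. In Per1 the E-box 331 bp upstream of its nearest start lay inside footprints of 9 and 29 bp. A second Per1 promoter E-box, 162 bp upstream of the principal start, only touched a footprint in each replicate.

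The intronic Nr1d1 region was the richest, with 3 E-boxes and a D-box. The E-box 1176 bp downstream of the start lay in footprints of 43 bp in replicate 1 and 40 bp in replicate 2. The E-box 1456 bp downstream lay in footprints of 12 and 31 bp. The E-box 15 bp further on was inside a footprint only in replicate 2, and touched one in replicate 1. The D-box between them lay in footprints of 25 and 23 bp. The distal Nr1d1 E-box lay in footprints of 27 and 33 bp. The strongest Nr1d1 region, its promoter, held no CACGTG.

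**Figure D5:**
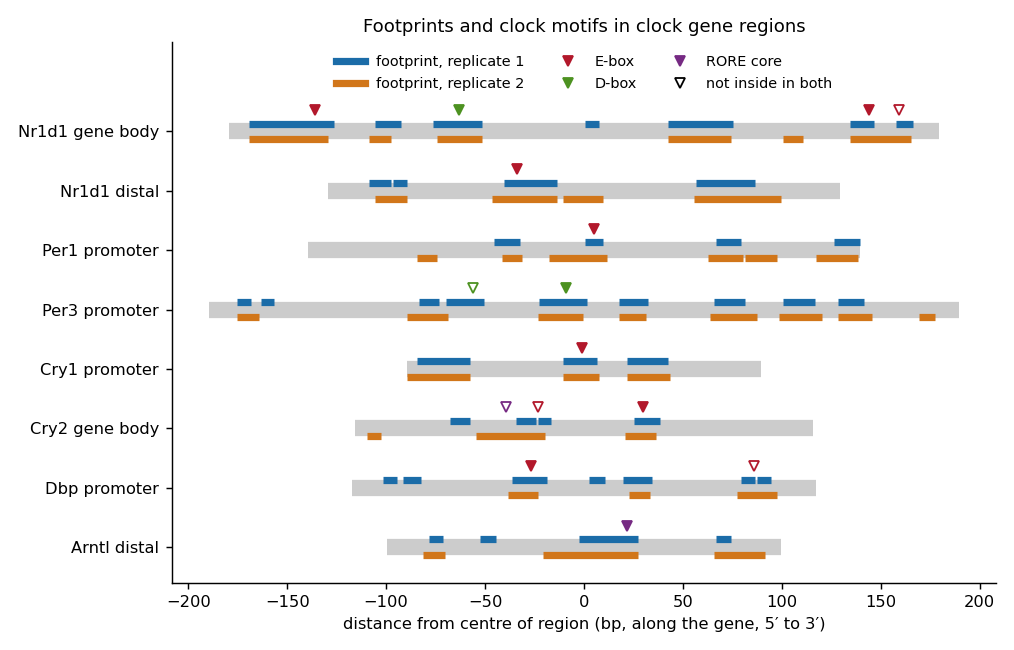
Each grey bar is 1 clock gene region with an E-box, D-box or RORE core inside a footprint of both replicates, drawn by distance from its centre along the gene (x axis, bp), with footprints of replicate 1 in blue and replicate 2 in orange. Triangles mark the elements, filled where both replicates have them inside a footprint. The intronic Nr1d1 bar carries 3 filled triangles, more than any other bar.

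D-boxes (TTATGTAA or TTACGTAA) numbered 6, with 2 inside a footprint of both replicates, in the Per3 promoter and the Nr1d1 intron. Over all shared regions the share was 15.1%, and over their strongest 25% it was 33.6%, beside 33.3% here. The Per3 promoter had a second D-box, 202 bp upstream, that was inside a footprint in replicate 1 only. RORE cores (TAGGTCA or TGGGTCA) numbered 9, with 1 inside a footprint of both, the distal Arntl site, against 2.52% of all copies and 6.01% in the strongest 25%. The main Arntl promoter region held neither of these exact words, and looser forms of the RORE were not searched. E-prime boxes (CACGTT) numbered 10, with 1 inside a footprint of both, in the Cry2 promoter 190 bp upstream, against 3.81% of all copies and 9.40% in the strongest 25%. The Per2 E-prime box, 7 bp downstream of the annotated start, was inside a footprint in replicate 2 and touched one in replicate 1. That site lies outside the strongest Per2 promoter peak of replicate 2. A CRE (TGACGTCA) occurred once, in the Per1 intronic region, 1742 bp upstream of the principal start site. It lay inside a footprint of both, against 57.1% of all copies and 75.4% in the strongest 25%.

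As shares of the 18 promoter regions, read in 300 bp windows on both strands, the elements compared as follows. An E-box was in 4 windows (22.2%), against 9.49% of all 18769 shared promoter windows and 12.3% of the strongest 25%. An E-prime box was in 5 (27.8%), against 5.61% of all and 6.14% of the strongest 25%. A D-box was in 2 (11.1%), against 0.986% and 0.661%. A RORE core was in 2, against 3.89% and 3.32%. A CRE was in none of the 18, against 3.10% and 6.12%. The Per1 CRE named above lies in a gene-body region, outside these 18. The CCAAT box, bound by NF-Y, was in 15 (83.3%), against 33.7% of all windows and 53.1% of the strongest 25%. Of the 18 regions, 10 belonged to that strongest 25%. The main Arntl promoter region alone held 10 copies of CCAAT. The GC box (GGGCGG), bound by SP factors, was in 61.1%, against 60.0% of all windows and 76.2% of the strongest 25%. These are matches of letters, with few regions behind each share. The median GC content of the windows was 68.3%, against 63.0% over all, and its part in the shares was not tested.

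Other genes of the clock were open about as often, but less strongly. Whereas 57.9% of all protein-coding genes had open promoters in both replicates, 25 of a wider list of 26 regulators and outputs did. Their median percentile was 64.5, and 3 of them were above the 95th. Btrc, part of the ubiquitin ligase that marks PER proteins, had 7.40 in replicate 1 and 8.65 in replicate 2. Usp2, a clock-driven deubiquitinase, had 6.23 and 9.63, and Tef, a relative of Dbp, had 7.57 and 7.49. These overlapped the range of Nr1d1, Per1 and Dbp. Csnk2b, a subunit of casein kinase 2, had 5.38 and 5.14, and Csnk1d, a kinase of PER proteins, had 3.35 and 8.14. The Csnk1d promoter thus differed between the replicates by more than that of Cry1.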

How the data were processed

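Per the labels, coordinates are mm10. None of the sources used here names the peak caller or the aligner. The authors deposited, per library, 2 peak lists with a signal value per peak, footprints at an FDR p-value threshold of 0.01, and intervals with an FDR p-value. The shorter list was used; all its peaks at the clock genes touched an interval at an FDR of 0.001 or lower. Start sites and gene spans came from GENCODE M21 and sequence from RefSeq's GRCm38.p6. Peaks of both libraries that shared 1 bp were merged, and a region with a peak of each is shared. Regions went to promoters (500 bp), then gene bodies, then the nearest start site within 100 kb. Motifs were searched as exact letters on both strands. Beside those spelled out in the report these were AP-1 (TGANTCA), the neuronal bHLH E-box (CAGATG) and, by name alone, NRF1, CTCF and the glucocorticoid element. All members are named, and of the wider list those not open and the 5 highest; 1 gene that the rule takes is not reported here. The members and lists were chosen with earlier results of these data known. No test was run, since there is 1 group. Intervals are exact Poisson intervals at 95%. Scripts used Python 3.11.15, pandas 2.3.3 and numpy 2.4.6, and were tested on simulated peaks. Alternatives varied the list, strength, window, start sites, overlap, reach, scaling and replicates.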

Additional observations from a re-analysis of the deposited data

Results flagged for a closer look

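The Npas2 promoter in replicate 2 carried signal outside the peak list used for the report. The shorter list gives no peak there, but the longer list gives one with a value of 0.918, beside 0.984 in replicate 1. Its lowest FDR in replicate 2 was 5.27e-04, over 28 bp at 0.001 or lower.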

How the results depend on the processing

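Of 61 values of the 8 summary results under the alternatives, 51 stayed within 1.5 times (counts) or 1 SD (values), and 10 moved. For the median value and percentile, that SD came from the 2 single-library results. Leaving out a replicate could therefore hardly exceed it. The 51 also include a median value of 7.04 after division by the library median, which is in other units than 6.02. With the longer peak list the median percentile was 92.7, and there were 52 gene-body and 30 distal regions, against 28 and 19. The median percentile was 88.5 with a 100 bp promoter, 92.2 with 2000 bp and 89.8 with APPRIS principal start sites. With distal regions counted within 100 kb whichever gene was nearest, they numbered 82. Without centring, the median promoter difference was -0.41. When touching a footprint was enough, 12 E-boxes counted, against 7. Leaving out either replicate gave 9 to 10 open members, a median value of 5.23 to 6.94, a median percentile of 93.3 to 95.2, 37 to 44 gene-body regions, 24 to 27 distal regions, 84 footprints and 8 to 10 E-boxes. Of 44 promoter values of single open genes, 42 equalled the main value as printed. Since the strongest peak was taken, a longer list, the stronger peaks or a wider window could hardly change it. These equal values are therefore no check of it. With a 100 bp promoter 8 members were open in both replicates, and Per2 was no longer among them, so it has no value there. The values that moved were those of Per1, with 4.65 under a 100 bp promoter and under principal start sites, against 8.26. The cause was not tested, beyond the alternatives' own construction. No paired analysis was possible because there is only 1 group. The part of depth in the missing Npas2 peak was not tested, and 2 libraries of 1 group give no test.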

Other observations

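Elements of other factor families were also counted in the clock gene regions. AP-1 matches, where Fos and Jun proteins bind, were in 6 of 28 gene-body windows (21.4%), against 18.8% of all, and in 4 of 19 distal windows (21.1%), against 19.6%. None of the 8 AP-1 copies was inside a footprint of both replicates, against 1.83% of all copies. The neuronal bHLH E-box was in 10 of 28 gene-body windows (35.7%), against 34.3%, and in 6 of 19 distal windows (31.6%), against 34.0%. Exact NRF1 and CTCF matches were in no window of the clock genes, and looser forms were not searched. Over all shared regions NRF1 was in 1.72% of promoter, 0.110% of gene-body and 0.153% of distal windows. CTCF was in 0.666%, 2.26% and 3.01%, so few or no matches would be found in this many windows at those shares. Both glucocorticoid elements lay in Per1 regions, and neither was inside a footprint of either replicate.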
